A study of Homo sapiens with 6 samples.

Results

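The ID genes and other transcripts that respond to bone morphogenetic protein (BMP) signalling through SMAD proteins were followed in human induced pluripotent stem cell (iPSC) aggregates cultured with and without 2 medium additives. The set holds 10 of the 19977 genes in the count data, chosen by symbol. It comprises the paralogues ID1, ID2, ID3 and ID4, the SMAD genes SMAD6, SMAD7 and SMAD9, and the transcription factor genes MSX1, MSX2 and ATOH8. All 10 were found by their Ensembl identifiers and all passed the filter of at least 10 counts over the 6 libraries.

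The cells were NCRM-1, an established human iPSC line, wild type in all 6 samples per the labels, grown as aggregates in vertical wheel bioreactors for 4 days. Bulk RNA was sequenced from 3 samples in E8 medium with 10 mg/ml polyethylene glycol (PEG) and 0.1 µg/ml heparin sodium salt (HS), and from 3 samples in E8 alone (Control). Both media received the ROCK inhibitor Y-27632 at seeding, and 50% of the medium was replaced on day 2. E8 is a defined medium whose growth factors are FGF2 and TGFb1, and BMP is not among its components. One text label describes PEG and heparin for all 6 samples, so the treatment given for each sample was followed. The labels read as 1 bioreactor for each medium. The vessel and the medium therefore cannot be told apart, and p-values measure the spread between samples that may not be independent cultures.

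Counts on genes totalled 28148630 to 33849198 with PEG and HS and 26991279 to 36185138 in Control. Log2 CPM (counts scaled to the TMM-adjusted total of each library) correlated at r = 0.997 between libraries of the same medium, and no library stood apart. The 6 pluripotency markers summed to 6434 to 6661 CPM with PEG and HS and 6508 to 6646 CPM in Control, but 4 of the 6 were called, in both directions. NANOG (log2 fold change 0.55, adjusted p = 6.55e-10 in edgeR's quasi-likelihood test) and POU5F1 (0.23, adjusted p = 3.20e-06) were higher in PEG and HS, and SOX2 (-0.59, adjusted p = 4.79e-10) and LIN28A (-0.30, adjusted p = 2.64e-06) were lower. Endoderm markers (5 genes) summed to 2.90 to 2.94 CPM against 3.52 to 4.26, and mesoderm markers (6 genes) to 5.47 to 5.63 against 6.00 to 7.34. None of the 3 endoderm genes tested was called. Of the 5 mesoderm genes tested, 1 was called, and it was lower, against 13.1% of all tested genes called lower.

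BMP ligands bind paired type I and type II receptors, which phosphorylate SMAD1, SMAD5 and SMAD9. These join SMAD4 and act in the nucleus on GC-rich elements, where the ID genes are classical direct targets. ID proteins have a helix-loop-helix domain but no basic DNA-binding region, so they pair with E proteins and related factors and keep them from DNA. SMAD6 and SMAD7 are inhibitory SMADs that feed back on the pathway, and SMAD7 also responds to TGF-beta and Activin or Nodal signals. In pluripotent cells, BMP signalling is known for leading primed human cells toward extraembryonic and non-neural fates.

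Upstream sequence was read for the genes on which the results turn, to show how the paralogues differ in letters known from SMAD-bound DNA. Both strands of the RefSeq promoter (from 250 bases upstream of each start) and of the 2000 bases upstream were searched. The wider window was chosen after the data were seen. The 6 bases GGCGCC, GC-rich letters of SMAD1 and SMAD5 elements, were found in the wider window of 6 of the 10 genes (ID1, ID2, ID4, SMAD6, SMAD7 and ATOH8). They were in 38.7% of all 35116 windows. No promoter of the 10 held them, against 19.2% of all promoters. The paired form GGCGNC, then 5 bases of any kind, then GTCT was found upstream of ID1 and in 0.948% of windows, and its variant that starts with GACGNC upstream of ID3 and in 0.313%. The palindrome GTCTAGAC, which holds GTCT on both strands, was found in the promoter of SMAD6 and upstream of SMAD7, against 0.202% of promoters and 1.17% of windows. GGAGCC, also GC-rich, was found upstream of 9 of the 10 genes (all but ID2) and in 71.7% of windows. It was in the promoters of 8 of the 10 (not ID2 or MSX2), against 36.0% of all promoters. CAGACA was found upstream of 5 and in 71.7% of windows as well. No promoter of the 10 held CAGACA, against 16.9% of all promoters. SMAD7 has several RefSeq starts and so several windows, which makes a match more likely there.

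The stretches below are GRCh38.p14 sequence by RefSeq starts, written 5′ to 3′ on the strand of the gene, with capitals marking the fixed letters of GGCGCC, the paired forms and the palindrome only. Copies of GGAGCC, which lie at -26 in SMAD6 and -1235 in SMAD7, stay in lower case. ID1 is chr20:31604289-31604438 (plus strand), with GGCGCC at position -965 and the paired form at -911 from the start, and 80 of its 150 bases lie in an exon of a long non-coding RNA. ID2 is chr2:8681616-8681685 (plus), with GGCGCC at -408, and ID4 is chr6:19836830-19836899 (plus), with GGCGCC at -508. ID3 is chr1:23559962-23560041 (minus), with the variant paired form at -506. SMAD6 is chr15:66702176-66702235 (plus), with the palindrome at -12, and SMAD7 is chr18:48952186-48952255 (minus), with the palindrome at -1260. The latter 5 stretches overlap no annotated exon. Copies of GGCGCC also lie upstream of SMAD6, SMAD7 and ATOH8, none of which was called lower in PEG and HS, but outside the stretches shown. A match is a description of letters and not a bound site.
ID1: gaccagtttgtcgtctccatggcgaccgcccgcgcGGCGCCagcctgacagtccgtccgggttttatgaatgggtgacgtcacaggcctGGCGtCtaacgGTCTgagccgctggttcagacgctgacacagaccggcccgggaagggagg
ID2: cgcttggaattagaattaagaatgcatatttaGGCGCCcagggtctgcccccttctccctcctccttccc
ID3: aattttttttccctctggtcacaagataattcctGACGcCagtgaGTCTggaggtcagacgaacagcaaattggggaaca
ID4: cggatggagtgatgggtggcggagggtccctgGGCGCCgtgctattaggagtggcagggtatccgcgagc
SMAD6: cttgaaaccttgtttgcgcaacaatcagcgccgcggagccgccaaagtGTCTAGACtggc
SMAD7: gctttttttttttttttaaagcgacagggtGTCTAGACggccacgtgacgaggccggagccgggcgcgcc

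Of the 10 genes, ID1, ID2, ID4, SMAD9 and MSX2 were lower and SMAD7 was higher in PEG and HS, while ID3, SMAD6, MSX1 and ATOH8 did not pass the test. The fit was edgeR's quasi-likelihood test over 16505 genes with Benjamini-Hochberg adjustment, and a gene was called at an adjusted p under 0.05. In these data 25.3% of all tested genes were called, 12.2% higher and 13.1% lower, so the count of 6 of 10 is read against that background. The CPM of the media did not overlap for 7 of the 10 genes (the 6 called and MSX1), against 39.3% of all tested genes. The median log2 fold change was -0.71 over the 10 genes and 0.0031 over all genes tested.

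**Figure D1:**
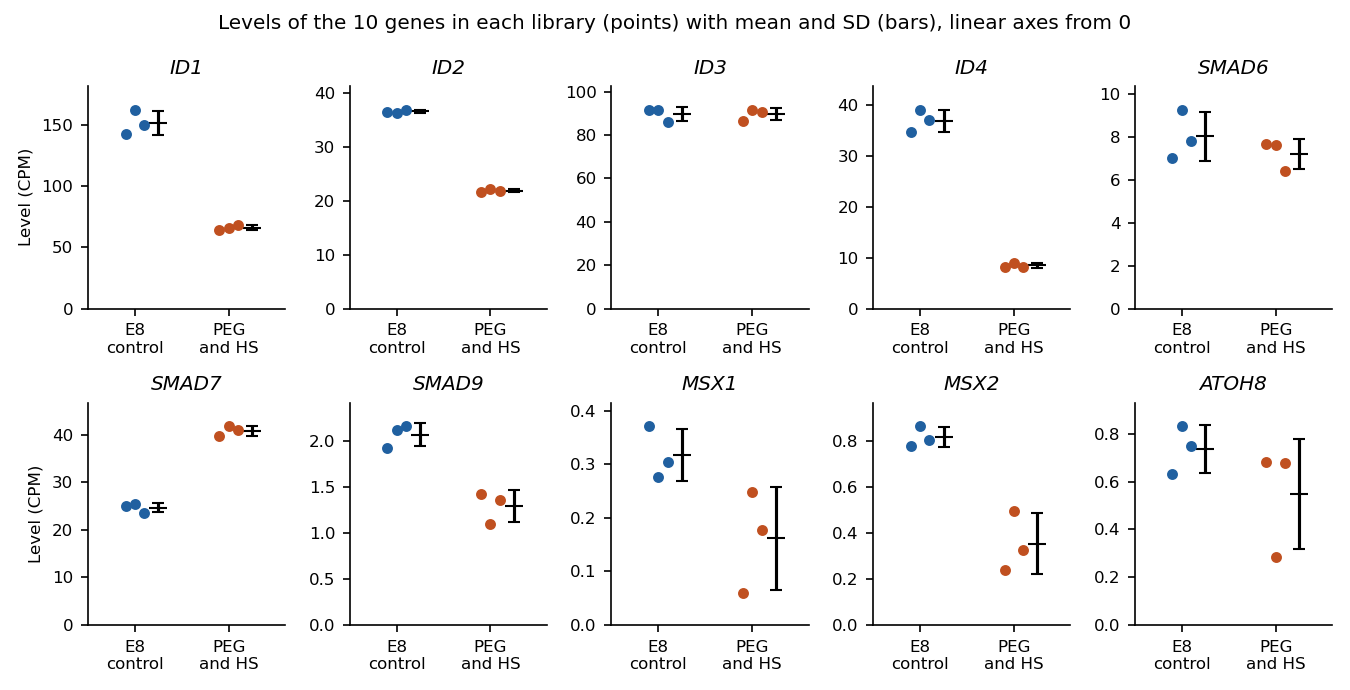
Level in CPM (linear axes from 0) of each of the 10 genes in the 3 E8 control and the 3 PEG and HS libraries (points), with the mean and SD as bars. The media are separated in ID1, ID2, ID4, SMAD7, SMAD9, MSX1 and MSX2 and overlap in ID3, SMAD6 and ATOH8.

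Coordinates of the genes are GENCODE 44 on GRCh38. ID1 (ENSG00000125968, chromosome 20, 31605283 to 31606515, plus strand) was the leading ID transcript per length in Control. Its level was 64.1, 66.2 and 68.7 CPM in the PEG and HS libraries and 143, 163 and 150 CPM in the Control libraries. All 3 PEG and HS libraries were below all 3 Control libraries, and the control level was 2.29-fold the PEG and HS level. The log2 fold change was -1.20 (SE 0.045, 95% interval -1.29 to -1.10, adjusted p = 3.17e-11 in edgeR), and 393 of the 16505 tested genes had a lower fold change. Its mean was 66.3 ± 2.33 CPM with PEG and HS and 152 ± 10.2 CPM in Control (SD, n = 3).

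ID2 (ENSG00000115738, chromosome 2, 8678845 to 8684461, plus strand) was the most even of the ID genes between replicates. Its level was 21.6, 22.1 and 21.9 CPM with PEG and HS and 36.5, 36.4 and 36.9 CPM in Control. The media were apart by many times the replicate spread (21.9 ± 0.237 against 36.6 ± 0.265 CPM, SD, n = 3), a 1.67-fold lower level. This was a log2 fold change of -0.74 (SE 0.044, 95% interval -0.84 to -0.65, adjusted p = 6.06e-09 in edgeR). An antisense gene, ID2-AS1, overlaps 145 of its exon bases (6.55%), its transcripts share 3.63% of their 31-base words with other genes, mostly ID2B, and the use of strand in counting was not given in the sources used here.

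ID3 (ENSG00000117318, chromosome 1, 23557926 to 23559501, minus strand) did not move with ID1 and ID2. It was at 86.5, 91.6 and 90.7 CPM with PEG and HS and 91.5, 91.5 and 86.0 CPM in Control. The libraries of the media were interleaved (89.6 ± 2.70 against 89.7 ± 3.16 CPM). Its log2 fold change was -0.00059 (SE 0.036, adjusted p = 0.996 in edgeR). Its 95% interval of -0.077 to 0.075 leaves out a change of the size of ID1 or ID2.

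ID4 (ENSG00000172201, chromosome 6, 19837370 to 19842197, plus strand) had the lowest level per length of the ID genes in PEG and HS and the largest difference of the 10 genes. Its level was 8.16, 9.02 and 8.24 CPM with PEG and HS and 34.7, 39.1 and 37.0 CPM in Control. The Control level was 4.37-fold that in PEG and HS, with no overlap (8.47 ± 0.478 against 36.9 ± 2.22 CPM). Its log2 fold change was -2.13 (SE 0.064, 95% interval -2.27 to -1.99, adjusted p = 3.17e-12 in edgeR), with 122 of the tested genes lower. Genes called and lower by more than 1 on the log2 scale made up 1.78% of all tested genes, and ID1, ID4 and MSX2 were among them.

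ID4 is also transcribed in early neural cells, and bulk RNA cannot tell fewer cells of a type from less RNA per cell. The 8 neuroectoderm markers summed to 31.7 to 34.3 CPM in PEG and HS against 91.0 to 94.6 CPM in Control, and 7 of the 8 were called lower, against 13.1% of all tested genes. LHX5 and OLIG3 had the highest CPM of them in Control, at 29.6 and 28.1 CPM. None of the 8 was at 0. The part of these cells in the ID4 result was not tested.

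**Figure D2:**
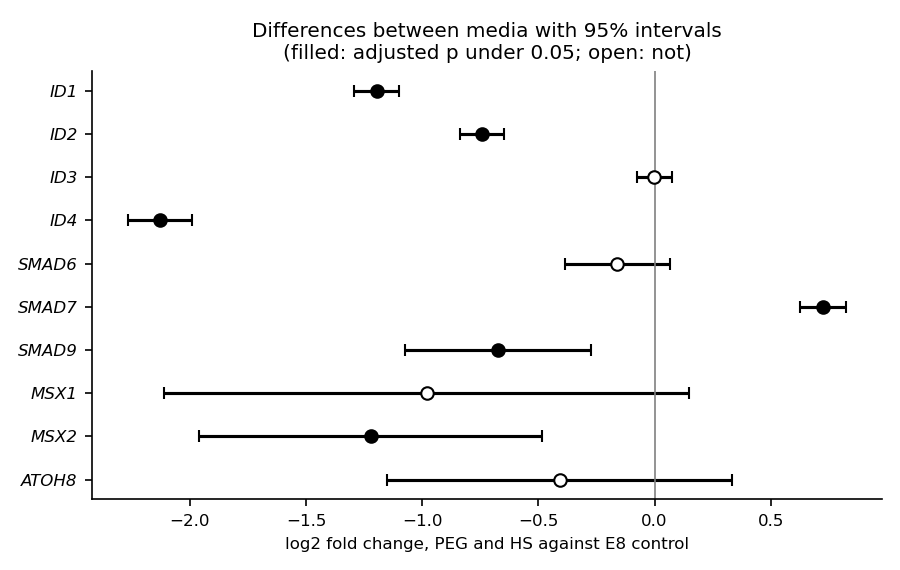
Log2 fold change of each of the 10 genes, PEG and HS against E8 control (points), with 95% intervals from edgeR (bars). Filled points have an adjusted p under 0.05. ID3 sits at 0 with a narrow interval, and SMAD7 is the one gene to the right of 0 that was called.

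To ask whether the paralogues moved alike, the log2 ratio of the genes of a pair was taken within each library, so that library size drops out, and compared between media with limma. The spread was shared with the ratios of other gene pairs, 8255 ratios in all, and p-values were adjusted over all of them. All 6 pairs of ID genes differed between the media, against 29.6% of all ratios called. The ratios of the media did not overlap in any of the 6 pairs, as in 41.9% of all ratios. The 6 pairs share genes, so they are not independent of each other. The other ratios use each gene once and pair genes next to each other in mean level. Their shares are therefore not matched to pairs as unlike in level as ID3 and ID4.

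ID1 against ID3 showed the turn most plainly. The ratio of ID1 to ID3 in CPM, not corrected for length, was 1.70 ± 0.119 in Control and 0.740 ± 0.017 in PEG and HS (SD, n = 3). The difference of log2 ratios was -1.19 (SE 0.052, 95% interval -1.31 to -1.08, limma adjusted p = 1.94e-09). The ratio of ID3 to ID4 was 2.44 ± 0.177 in Control and 10.6 ± 0.428 in PEG and HS, a log2 difference of 2.12 (SE 0.064, limma adjusted p = 1.34e-10). For ID2 and ID4 the ratio was 0.994 ± 0.061 in Control and 2.59 ± 0.119 in PEG and HS, a log2 difference of 1.38 (SE 0.075, limma adjusted p = 1.54e-08).

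The genes that fell also fell by unequal amounts. ID1 fell more than ID2, since the ratio of ID1 to ID2 went from 4.15 ± 0.290 in Control to 3.03 ± 0.092 in PEG and HS (log2 difference -0.45, SE 0.058, limma adjusted p = 5.74e-05). ID4 fell more than ID1, with a ratio of ID1 to ID4 of 4.11 ± 0.049 against 7.83 ± 0.496 (log2 difference 0.93, SE 0.059, limma adjusted p = 7.47e-08). ID2 against ID3 differed by -0.74 (SE 0.052, limma adjusted p = 2.03e-07). With 3 libraries in each medium, an exact two-sided permutation test on 1 ratio cannot go below 0.1, and each of the 6 pairs gave p = 0.1.

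**Figure D3:**
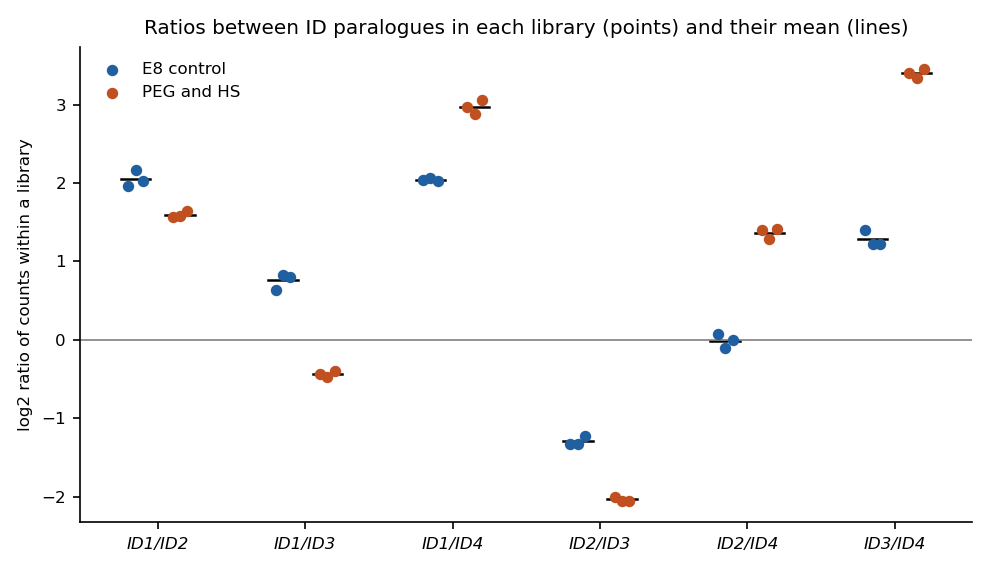
Log2 ratio of CPM within each library for the 6 pairs of ID genes, in E8 control and in PEG and HS (points, 1 per library, with the mean as a line). In each pair the 3 libraries of one medium lie on one side of the 3 of the other, and ID1 against ID3 crosses 0.

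SMAD7 (ENSG00000101665, chromosome 18, 48919853 to 48950965, minus strand) was higher in PEG and HS, the opposite direction to ID1, ID2 and ID4. The PEG and HS libraries held 39.6, 41.8 and 40.9 CPM of it, and the Control libraries 25.1, 25.4 and 23.6 CPM. Its PEG and HS level was 1.65-fold the Control level, with no overlap (40.8 ± 1.06 against 24.7 ± 0.936 CPM). In log2 units the change was 0.73 (SE 0.046, 95% interval 0.63 to 0.82, adjusted p = 1.37e-08 in edgeR), and 371 tested genes had a higher one. Among all tested genes, 3.25% were called with an absolute change at least as large.

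SMAD6 (ENSG00000137834, chromosome 15, 66702236 to 66782849, plus strand), the inhibitory SMAD that acts mainly on BMP receptors, was at 7.65, 7.61 and 6.41 CPM with PEG and HS and 7.01, 9.26 and 7.81 CPM in Control. The media overlapped (7.22 ± 0.703 against 8.03 ± 1.14 CPM). The log2 fold change of -0.16 did not pass the test (SE 0.11, 95% interval -0.39 to 0.067, adjusted p = 0.309 in edgeR). It was -0.08 without PEG and HS replicate 3, -0.24 without Control replicate 1 and -0.05 without Control replicate 2. The difference between SMAD7 and SMAD6, a comparison added after their values were seen, was 0.87 on the log2 ratio scale (SE 0.11, 95% interval 0.63 to 1.11, limma adjusted p = 5.49e-05).

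SMAD9 (ENSG00000120693, chromosome 13, 36844831 to 36920887, minus strand) encodes a BMP-regulated SMAD and is itself a response gene. It was at 1.42, 1.10 and 1.36 CPM with PEG and HS and 1.93, 2.12 and 2.16 CPM in Control, lower in PEG and HS with no overlap (1.29 ± 0.173 against 2.07 ± 0.126 CPM). The log2 fold change was -0.67 (SE 0.19, 95% interval -1.07 to -0.28, adjusted p = 0.0150 in edgeR) on 31 to 78 counts a library. The call was lost without PEG and HS replicate 2 (log2 fold change -0.58, adjusted p = 0.0557) and without Control replicate 3 (-0.64, adjusted p = 0.050).

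MSX2 (ENSG00000120149, chromosome 5, 174724582 to 174730896, plus strand), a homeobox gene of BMP-responsive embryonic tissues, had 8, 14 and 11 counts with PEG and HS and 21, 28 and 29 counts in Control. All Control libraries were above all PEG and HS libraries, at 0.815 ± 0.043 against 0.353 ± 0.131 CPM. This was a log2 fold change of -1.22 (SE 0.35, 95% interval -1.96 to -0.48, adjusted p = 0.0169 in edgeR). The call was lost without PEG and HS replicate 1 (-1.0, adjusted p = 0.0749) and without Control replicate 2 (-1.18, adjusted p = 0.0549). Its transcripts share 9.54% of their 31-base words with other genes.

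MSX1 (ENSG00000163132, chromosome 4, 4859665 to 4863936, plus strand), the paralogue of MSX2, had 2, 7 and 6 counts with PEG and HS and 10, 9 and 11 counts in Control. The media did not overlap, but the log2 fold change of -0.98 did not pass the test (SE 0.53, 95% interval -2.11 to 0.15, adjusted p = 0.203 in edgeR). It was -0.58 without PEG and HS replicate 1. A difference between MSX1 and MSX2, also added after the values were seen, was not detectable at this depth (0.15 on the log2 ratio scale, 95% interval -1.02 to 1.31, limma adjusted p = 0.874).

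ATOH8 (ENSG00000168874, chromosome 2, 85751344 to 85791383, plus strand), a basic helix-loop-helix gene that responds to BMP in several tissues, had 23, 8 and 23 counts with PEG and HS and 17, 27 and 27 in Control. The libraries overlapped, and PEG and HS replicate 2 was the lowest of the 6. The log2 fold change of -0.41 (SE 0.35, 95% interval -1.15 to 0.33) did not pass the test (adjusted p = 0.441 in edgeR). Without PEG and HS replicate 2 it was -0.12.

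Per length of transcript, in CPM per kb of merged exons, the order of the genes differed between the media. In Control it was ID1 (123 ± 8.25), ID3 (60.0 ± 2.11), ID2 (16.5 ± 0.12), ID4 (9.53 ± 0.573), SMAD7 (6.25 ± 0.237) and SMAD6 (0.938 ± 0.134). MSX2 (0.366 ± 0.019) and SMAD9 (0.348 ± 0.021) followed with overlapping ranges, then MSX1 (0.15 ± 0.023) and ATOH8 (0.079 ± 0.011). In PEG and HS, ID3 (59.9 ± 1.81) was above ID1 (53.8 ± 1.89), and SMAD7 (10.3 ± 0.270) was just above ID2 (9.89 ± 0.107) and above ID4 (2.19 ± 0.123).

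SMAD6 (0.844 ± 0.082) came next in PEG and HS. The ranges of SMAD9 (0.217 ± 0.029) and MSX2 (0.159 ± 0.059) overlapped there, as did those of MSX1 (0.076 ± 0.045) and ATOH8 (0.059 ± 0.025). Against the length of the longest transcript, ID3 was at 94.4 CPM per kb in Control and 94.3 in PEG and HS, and the order of ID1 and ID3 within each medium was kept. The order of the overlapping SMAD9 and MSX2 in Control, and of MSX1 and ATOH8 in PEG and HS, changed.

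The summed level of the 4 ID genes was 126 ± 3.6 CPM per kb in PEG and HS and 209 ± 9.24 in Control. ID1 made up 58.9% ± 1.5 of it in Control and 42.8% ± 0.594 in PEG and HS. The share of ID3 was 28.7% ± 1.35 in Control and 47.6% ± 0.443 in PEG and HS, so ID3 took the place of ID1 as the leading ID transcript. ID2 held 7.92% ± 0.372 and 7.87% ± 0.162, and ID4 went from 4.55% ± 0.115 to 1.74% ± 0.087 (SD, n = 3).

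**Figure D4:**
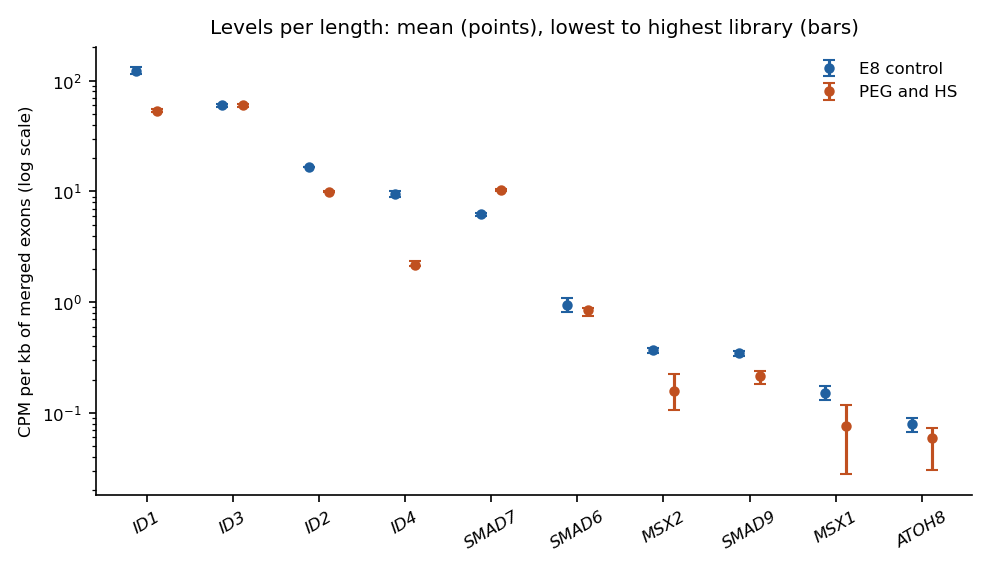
Level of each gene in CPM per kb of merged exons (log scale) in E8 control and PEG and HS, as the mean (points) with the lowest and highest library (bars). ID1 and ID3 change order between the media, and SMAD7 lies next to ID2 in PEG and HS.

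The rest of the pathway was read from lists grouped by role. Of the 12 BMP ligand genes, BMP10 and GDF2 had no count. Of the 10 tested, 5 were lower with none higher, against 13.1% lower and 12.2% higher over all tested genes. DESeq2 called 4 ligand genes lower and limma-voom 5. No ligand gene was higher at an unadjusted p under 0.05 in edgeR, DESeq2 or limma-voom. The median log2 fold change of the list was -0.54, against 0.0031 over all genes. BMP4 was at 1.57 ± 0.074 CPM in PEG and HS against 7.97 ± 0.943 in Control (log2 fold change -2.34, adjusted p = 2.46e-09 in edgeR), and BMP2 at 3.59 ± 0.135 against 17.0 ± 0.435 (-2.24, adjusted p = 8.13e-12). GDF6 (-0.70, adjusted p = 0.0259) and BMP6 (-0.37, adjusted p = 0.0464) were lower as well. BMP7, a gene of the ligand list that was named after its values were seen, was at 15.1 CPM against 18.9 in Control (-0.32, adjusted p = 0.00194).

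Among 11 receptor and co-receptor genes, 2 were higher and 2 lower (median 0.07), where 25.3% of all tested genes were called. RGMA, a co-receptor of BMP ligands, was at 44.5 ± 2.41 CPM against 76.0 ± 2.37 in Control (log2 fold change -0.77, adjusted p = 2.49e-09 in edgeR), RGMB at -0.17 (adjusted p = 0.0137) and the type II receptor gene BMPR2 at 0.13 (adjusted p = 0.0291). HJV was also higher, at under 1 CPM and 32 counts in total, and is named after its values were seen. Of 15 antagonist genes, 1 was higher and 5 lower (median -0.23, against the same 25.3%), led by FST, an Activin and BMP binder, at 16.3 CPM against 42.3 (-1.38, adjusted p = 4.81e-11). GREM1 (-0.85, adjusted p = 5.83e-04), TWSG1 (-0.45, adjusted p = 3.92e-06) and FSTL1 (-0.29, adjusted p = 6.37e-07) were lower as well.

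Of the SMAD genes that carry the BMP signal, SMAD4 and SMAD9 (above) were lower, while SMAD1 and SMAD5 did not pass the test. Of 15 mediators, ligases and co-repressors, 3 were higher and 2 lower (median -0.0027), where 25.3% of all tested genes were called. SMAD1 was at 26.3 CPM against 26.5 (adjusted p = 0.938 in edgeR) and SMAD5 at 80.9 CPM against 81.1 (adjusted p = 0.968). Both were named after their values were seen. SKIL, a SMAD co-repressor that TGF-beta and Nodal signals induce, rose from 153 to 241 CPM (log2 fold change 0.66, adjusted p = 4.72e-09). TOB1 (-0.45, adjusted p = 1.81e-05) and SMAD4 (-0.30, adjusted p = 1.37e-06) fell, and the phosphatase gene PPM1A rose by 0.27 (adjusted p = 3.89e-04).

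None of the E protein genes, whose products are the partners that ID proteins bind, passed the test in edgeR. TCF3 was at 367 CPM with PEG and HS and 386 in Control (log2 fold change -0.07, adjusted p = 0.0649), TCF4 at 131 and 130 (adjusted p = 0.951) and TCF12 at 136 and 131 (adjusted p = 0.231). TCF3 was the 1 gene of the 3 with an unadjusted p under 0.05, and it was called lower by DESeq2 but not by limma-voom.

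Of 15 other BMP response genes, CDX2 fell under the filter, and 1 of 14 was higher and 5 lower (median -0.68), against 12.2% and 13.1% of all tested genes. TFAP2A, a factor of surface ectoderm and amnion, was at 0.603 ± 0.269 CPM against 6.00 ± 0.230 (log2 fold change -3.30, adjusted p = 9.84e-09 in edgeR). GATA2 (-1.23, adjusted p = 0.00147) and TFAP2C (-0.70, adjusted p = 6.47e-07) were lower, and BAMBI, a decoy receptor that BMP and TGF-beta both induce, was higher (0.29, adjusted p = 0.00226). BAMBI is also in the antagonist list, where it is the 1 gene that was higher. HAND1 and DLX5, also among the 5 lower, had 16 and 38 counts in total and are named after their values were seen. Both were under 1 CPM and passed the filter on counts that lay mostly in Control (0.164 CPM of HAND1 and 0.357 CPM of DLX5). TFAP2A, HAND1, GATA3, ISL1 and CDX2 are also in the amnion and trophectoderm list, so the lists largely share genes and are not independent. The 7 genes of the amnion and trophectoderm list summed to 19.5 to 24.6 CPM against 54.8 to 65.9 in Control. Of the 6 tested, 4 were lower (13.1% over all tested genes). Most of the sum was IGFBP3, at 17.2 CPM against 45.3 in Control, and KRT7 was at 3.76 against 7.10. GATA3 (adjusted p = 0.546 in edgeR) and ISL1 (adjusted p = 0.790) were under 1 CPM and not called. HAND1 averaged 0.0099 CPM in PEG and HS, and CDX2 had 3 counts over all 6 libraries. The 7 neural border and crest markers summed to 73.7 to 78.1 CPM in PEG and HS against 66.6 to 71.0 in Control. FOXD3 made up most of that sum (51.9 against 41.6 CPM). Of these 7, 1 was higher (FOXD3) and 1 lower (SOX10), against 12.2% and 13.1% of all tested genes. SOX10 had a log2 fold change of -0.48 (adjusted p = 0.0223 in edgeR). The median log2 fold change of the list was -0.32, while its sum was higher through FOXD3. IGFBP3, KRT7, GATA3, ISL1, FOXD3 and SOX10 are named after their values were seen. The part of amnion, trophectoderm or neural border cells in the results for MSX2 and TFAP2A was not tested.

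Of 10 TGF-beta and Nodal response genes, 4 were higher and 3 lower (median 0.13), against 12.2% higher and 13.1% lower over all tested genes. LEFTY1, a Nodal antagonist and target, rose from 9.05 to 16.2 CPM (log2 fold change 0.83, adjusted p = 3.14e-06 in edgeR), and SKIL, which is in both lists, is given above. CCN2, a matricellular protein gene, fell (-0.88, adjusted p = 3.34e-06 in edgeR).

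**Figure D5:**
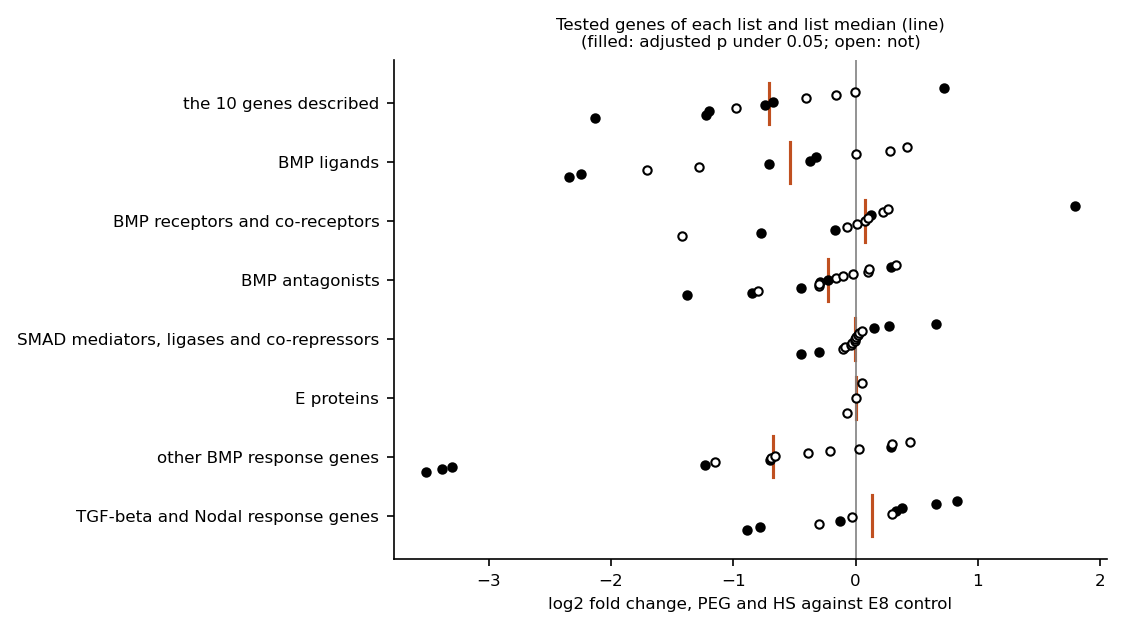
Log2 fold change of each tested gene (PEG and HS against E8 control) by list, with the list median as a line. Filled points have an adjusted p under 0.05. The medians of the 10 genes described, of BMP ligands and of other BMP response genes lie between -0.71 and -0.54, and those of the SMAD mediators and the E proteins near 0.

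Among 10064 genes with a mean of at least 10 CPM, the genes most like ID1 across the 6 libraries were BASP1, CCN1 and DPYSL3, with Pearson r of 0.9999, 0.9997 and 0.9996 on log2 CPM. These r are a description over 6 libraries that share the split between media. BASP1 was at 128 CPM with PEG and HS and 207 in Control (log2 fold change -0.69), CCN1 at 17.1 and 27.2 (-0.67) and DPYSL3 at 857 and 1148 (-0.42).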

How the data were processed

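Polyadenylated RNA of 6 samples was made into stranded libraries. Per the methods and labels, reads were trimmed (Trim Galore 0.6.7) and mapped to GRCh38 (STAR 2.6.1), and the authors deposited raw counts for each gene without normalization. The counting tool, its use of strand and the annotation release are not given in the sources used here. Of 19977 identifiers, 19916 matched GENCODE 44.

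Genes with at least 10 counts in total were tested with edgeR 4.0.16 (R 4.3.3, TMM, glmQLFTest, no covariate). The SE of a change is its size over the square root of F. CPM is scaled to each library's TMM-adjusted total. Ratios (prior count 0.5) were tested with limma 3.58.1. The planned ratio of every gene to one paralogue was replaced by ratios of separate gene pairs, because unchanged pairs were called too often in simulated data.

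Named are the 10 genes, the E proteins, up to 4 called genes a list with the largest change and at least 1 CPM, and the 3 genes most like ID1. One gene that this rule takes is not reported here. Members and lists were chosen with earlier results of these data known. Other settings tried were limma-voom, DESeq2 1.42.0, further normalizations and filters, the replicate number as a block and each library left out. Shared sequence is counted in 31-base words of GENCODE transcripts.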

Additional observations from a re-analysis of the deposited data

How the results depend on the processing

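Over 13 alternatives, 3114 to 4444 genes were called against 4173, and 5 or 6 of the 10 genes against 6. ID1, ID2, ID4 and SMAD7 kept their direction and call in all 13, and the 6 pairs of ID genes in all 8 of theirs, with ID1 against ID2 at adjusted p = 0.00368 at most. The log2 fold change of ID3 changed sign around 0, to 4.501e-06 with limma-voom, 0.008353 with library size alone and 0.000458 with a replicate block, and ranged from -0.031 to 0.024 with 1 library left out (the cause was not tested). The difference between MSX1 and MSX2 ranged from -0.032 to 0.44. MSX1 had no adjusted p in DESeq2 and was not tested under filterByExpr. Replicate numbers did not pair the samples: same-numbered samples correlated at 0.0127 to 0.0270 in their deviations, Control replicate 3 correlated best with another number, and the replicate block gave 4444 called genes and changed no call of the 10 genes. Scaling by library size moved calls that were higher from 48.3% to 52.4%. Depth limits MSX1, MSX2, ATOH8 and SMAD9, with 45 to 324 counts in all.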
